A study of Mus musculus with 30 samples.

Results

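Small nucleolar RNAs and small Cajal body RNAs were measured by RNA-seq in mouse embryos of the 8-cell stage, with Yy1 or a control knocked down. Yy1 encodes YY1, a zinc finger protein that binds DNA at many promoters. The small RNAs were taken by symbol, as all rows of the expression table whose symbol begins with Snora, Snord or Scarna followed by a number, and they made up 149 of the 49585 rows. Of these, 99 were C/D box rows (Snord), 41 were H/ACA box rows (Snora) and 9 were Cajal body rows (Scarna). The Yy1 knockdown group was given the Yy1 siRNA that the sample names number 1 and held 2 libraries, and the control group, labelled as a control knockdown, also held 2 libraries. All 4 libraries came from BDF1 x BDF1 embryos at the 8-cell stage that had been cultured in KSOM medium, and total RNA was made into libraries with a stranded SMART-Seq kit. The labels do not say how many embryos were pooled, whether the replicates came from separate collections, or what the control siRNA was. The remaining 26 of the series' 30 samples, among them chromatin assays, were not analysed here.

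C/D and H/ACA RNAs are short RNAs of the nucleolus that pair with other RNAs and direct a protein complex to a chosen nucleotide. C/D RNAs work with the methyltransferase fibrillarin and guide 2′-O-methylation, while H/ACA RNAs work with dyskerin and guide pseudouridylation, mostly of ribosomal RNA. Small Cajal body RNAs do the same for spliceosomal RNAs. Most of these RNAs in mammals are cut out of the introns of other genes, many of which encode ribosomal proteins, translation factors or noncoding transcripts, and a few have promoters of their own. At the 8-cell stage the embryo transcribes its own ribosomal RNA and its nucleoli are maturing.

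The H/ACA class takes its name from an ACA triplet a few bases before the 3′ end. RefSeq places miRNA hairpins inside several of these RNAs, and their annotated sequences show that end. Of the members described below, Scarna13 had a mean that was lower after Yy1 knockdown, Snora19 had one that was higher, and Scarna3a and Scarna3b are a pair of related copies whose levels are set side by side. The stretches that lie within each RNA are given here 5′ to 3′ from RefSeq (GRCm38.p6, the assembly behind mm10), with the ACA in capitals.
Scarna13 (chr12:105031077-105031141, minus strand): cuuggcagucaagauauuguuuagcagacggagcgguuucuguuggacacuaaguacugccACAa
Snora19 (chr19:60774330-60774385, minus strand): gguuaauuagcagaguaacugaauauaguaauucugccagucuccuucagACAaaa
Scarna3a (chr1:159340358-159340423, plus strand): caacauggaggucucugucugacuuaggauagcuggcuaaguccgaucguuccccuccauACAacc
Scarna3b (chr12:80391614-80391677, minus strand): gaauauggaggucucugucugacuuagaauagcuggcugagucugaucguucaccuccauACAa
The annotated 3′ end lay 3 bases after the ACA in Scarna13 and in Snora19, 4 bases after it in Scarna3a and 1 base after it in Scarna3b. Aligned at the ACA, the Scarna3a and Scarna3b stretches were identical at 58 of 64 bases and differed at 6.

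The deposited values are FPKM, fragments scaled to the length of the feature and to the library total. Library totals were recovered as those that made fragments whole. They were 34074291 and 29302489 fragments for Yy1 knockdown replicates 1 and 2, and 34429515 and 31405476 fragments for control replicates 1 and 2. Yy1 itself was measured at 5.89 and 7.98 FPKM after its knockdown, against 77.7 and 71.2 FPKM in controls (log2 fold change -3.26, limma adjusted p = 0.0556). Pearson correlations of log2(FPKM + 1) between libraries were 0.966 within Yy1 knockdown, 0.969 within control and 0.959 to 0.97 across groups. All 8 markers of 8-cell blastomeres passed the filter, 3 with a higher and 5 with a lower mean after Yy1 knockdown and 0 called. Their summed level, 2885 and 2730 FPKM after Yy1 knockdown and 2875 and 2649 FPKM in controls, was mostly Dppa3. Groups were apart in Klf17, at 83.3 and 69.2 FPKM after Yy1 knockdown and 61.2 and 38.2 FPKM in controls, and in the lower Pou5f1 and Tfap2c. Of 8 cumulus and granulosa markers 1 passed the filter, Amhr2, at 7.80 and 7.30 FPKM after Yy1 knockdown and 5.35 and 4.74 FPKM in controls, with the groups apart. The other 7 were at or below 0.247 FPKM in every library, and of these Fshr, Has2 and Ptx3 were listed at 0 throughout, while Foxl2, Cyp19a1, Amh and Inhba were above 0 in 1 or more libraries. The 5 sperm markers summed to at most 1.498 FPKM and the 5 blood markers to at most 1.68 FPKM in any library. The part of other cells in the results below was not tested.

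Of the 149 rows, 85 were above 0 in at least 1 library and 63 in all 4. The 85 comprised 57 C/D, 20 H/ACA and 8 Cajal body rows. The other 64 rows were listed at 0 in every library, namely 42 C/D rows, 21 H/ACA rows and Scarna10. Rows at 0 include RNAs that dividing cells are known to hold in quantity, such as Snord14e, which is needed for cleavage of the 18S rRNA precursor, Snord22, which also acts in rRNA processing, and Snora73b, which takes part in 18S processing. The deposited values fit whole fragments, so a 0 is read as no fragment counted for the row, not as absence of the RNA. Why none was counted was not tested, so these rows are described only as listed at 0. Snord3a, the U3 RNA of the small-subunit processome, has no row. The level of a row counts all fragments on that stretch, so a mature small RNA and the unspliced intron of its host cannot be told apart, nor can fewer transcribing cells and less RNA per cell.

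Rows at 0 were also found in well expressed genes. A RefSeq gene that contains the small RNA was taken as its host, regardless of strand, and was found for 137 of the 141 rows that could be placed. The median host level was 31.8 FPKM for 53 rows at 0 and 30.9 FPKM for 73 rows above 0. Of the rows above 0, 13 lie in the low noncoding gene Snhg14, and without rows in that gene, a choice made after seeing the data, the medians were 40.4 FPKM for 48 rows at 0 and 70.0 FPKM for 60 rows above 0. Median RefSeq lengths were 91 and 90 bases for rows at 0 and rows above 0. Snord14c, Snord14d and Snord14e, all at 0, lie in Hspa8, a heat-shock protein gene that stood at 1009 and 1223 FPKM after Yy1 knockdown and 940 and 1089 FPKM in controls. In 10 hosts some members were at 0 and others were not. Rps3, a ribosomal protein gene, holds Snord15a, the highest member of all, and Snord15b, which was listed at 0 in all 4 libraries.

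Together the members took a small share of each library, 0.0293% (exact 95% interval 0.0288 to 0.0299) and 0.0224% (0.0219 to 0.0230) of fragments after Yy1 knockdown, and 0.0237% (0.0232 to 0.0243) and 0.0272% (0.0266 to 0.0277) in controls. These intervals cover counting error only. By these shares replicate 1 of the Yy1 knockdown was the highest library and replicate 2 the lowest, with both controls between them. Summed FPKM of all members was 1903 and 1445 after Yy1 knockdown and 1439 and 1724 in controls. On that measure control replicate 1 was the lowest library. Of the 64 members that passed the filter of a mean of at least 1 FPKM, 11 had 100 or more fragments in every library and 21 had under 10 in some library.

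**Figure D1:**
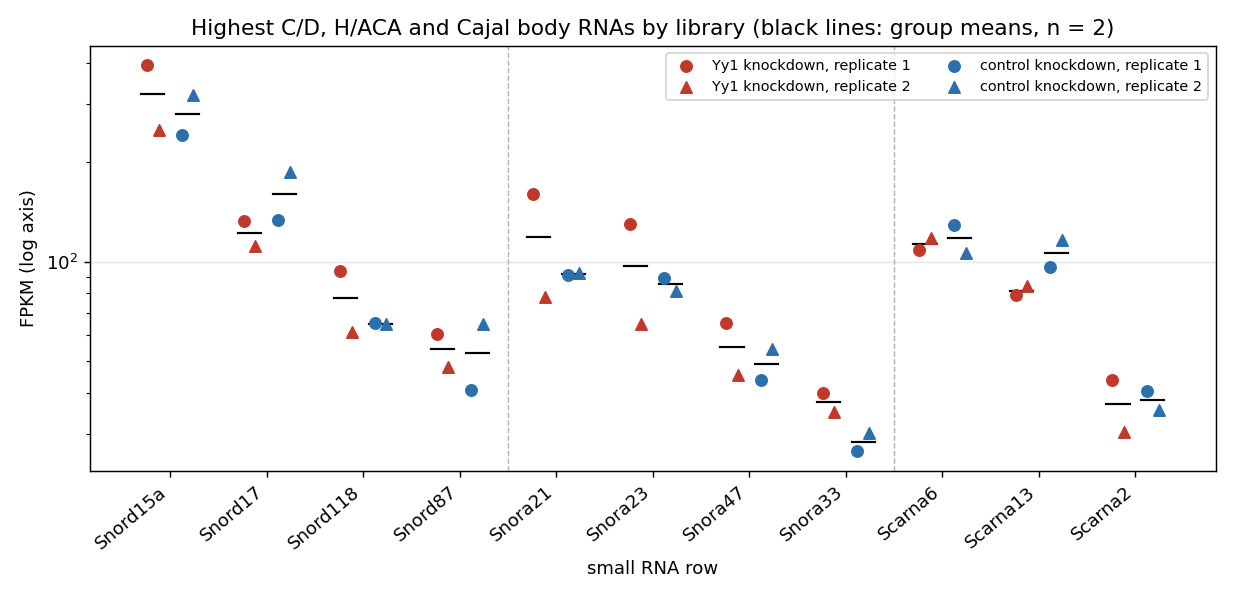
FPKM on a log axis of the 4 C/D, 4 H/ACA and 3 Cajal body RNAs with the highest mean level, in Yy1 knockdown libraries (red) and control libraries (blue), circles for replicate 1 and triangles for replicate 2, with group means as black lines (n = 2). Snord15a is the highest in every library, and Snord17, Snora33 and Scarna13 are the 3 whose groups do not overlap.

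Snord15a had the highest level per length of all members in every library. Target RNAs are given below as they are known for the human counterparts. It guides methylation of 28S rRNA and stood at 394 and 252 FPKM after Yy1 knockdown (1988 and 1091 fragments), against 242 and 319 FPKM in controls (1232 and 1485 fragments). The groups overlapped, and the log2 fold change on the log2(FPKM + 1) scale was 0.18 ± 0.26 (SE). Snord17, another 28S guide, was next among C/D RNAs, at 133 and 112 FPKM after Yy1 knockdown and 134 and 187 FPKM in controls. For Snord17 the knockdown libraries were both below the controls (log2 fold change -0.38 ± 0.20, unadjusted p = 0.114, and -0.14 without control replicate 2). Snord118, the U8 RNA that is needed to process 5.8S and 28S rRNA and has its own promoter, stood at 93.9 and 61.2 FPKM after Yy1 knockdown and at 65.0 and 64.6 FPKM in controls. Its controls were close to each other and lay between the Yy1 knockdown replicates. Snord87 stood at 60.4 and 47.9 FPKM after Yy1 knockdown and 40.7 and 64.8 FPKM in controls, with no separation.

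Snora21 was the highest H/ACA RNA, at 160 and 78.0 FPKM after Yy1 knockdown and 91.0 and 92.3 FPKM in controls. Snora23 stood at 130 and 64.5 FPKM after Yy1 knockdown and 89.0 and 81.3 FPKM in controls. Both guide pseudouridylation of 28S rRNA, and for both the replicate 1 library of the Yy1 knockdown was the highest of the 4 and the replicate 2 library the lowest. Snora47 stood at 64.9 and 45.3 FPKM after Yy1 knockdown and 43.6 and 54.5 FPKM in controls. Snora33, a 28S guide within Rps12 (chr10:23785347-23785451 of GRCm38.p6, as for all positions here), was the only one of these 4 without overlap, the Yy1 knockdown libraries being the higher. It stood at 40.04 and 34.9 FPKM after Yy1 knockdown, against 26.6 and 30.1 FPKM in controls (log2 fold change 0.39 ± 0.16, unadjusted p = 0.0492, adjusted p = 0.559). Among Cajal body RNAs, Scarna6, a guide for U5 small nuclear RNA, stood at 108 and 118 FPKM after Yy1 knockdown and 129 and 106 FPKM in controls. Scarna2, a U2 guide that is transcribed on its own, stood at 43.8 and 30.3 FPKM after Yy1 knockdown and 40.3 and 35.5 FPKM in controls.

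No member passed the test. limma on log2(FPKM + 1), adjusted after Benjamini-Hochberg over all 12120 rows above the filter with a threshold of 0.05, called 0 of 64 members, beside 0 of all rows (0.0%). At an unadjusted p under 0.05 there were 4 members higher after Yy1 knockdown, beside 4.22% of all rows, and 4 lower, beside 4.69% of all rows. The lowest adjusted p of a member was 0.455. A second fit, limma-voom on recovered fragments, also called 0 members, beside 0.107% of all rows. Log2 fold changes of the members ran from -1.35 to 2.14, and their median absolute size was 0.37, beside 0.21 for all rows. The value of 2.14 was that of Snord42b, whose groups overlapped. It had 2 and 46 fragments after Yy1 knockdown and 3 and 0 in controls. The members also varied more between replicates, with a median absolute log2 difference of 0.65 between the Yy1 knockdown libraries and 0.53 between the control libraries, beside 0.24 and 0.23 for all rows.

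By class, 39 of 64 members had a higher mean after Yy1 knockdown and the median log2 fold change was 0.13, beside 53.2% of all rows and a median of 0.02. Of the H/ACA RNAs 16 of 17 were higher, with a median of 0.35. C/D RNAs were split, with 20 of 39 higher and a median of 0.06, and 3 of 8 Cajal body RNAs were higher, with a median of -0.05. Without control replicate 1, 6 of 8 Cajal body RNAs were higher, and without replicate 2 of the Yy1 knockdown 5 of 8 were. Members of a class share the same 4 libraries and are not independent, and some share a host. Left out of the count are 21 members that were above 0 but below the filter. Groups did not overlap in 7 members that were higher, beside 21.8% of all rows, and in 8 that were lower, beside 18.9% of all rows.

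The H/ACA count rested on replicate 1 of the Yy1 knockdown. Set against the control mean, that library was higher in 15 of 17 H/ACA RNAs, with a median log2 difference of 0.60, while replicate 2 was higher in 8 of 17, with a median of -0.10. Without replicate 1, 8 of 17 H/ACA RNAs and 24 of all 64 members were higher, and the median over all members turned to -0.14. Replicate 1 exceeded both controls in 12 H/ACA RNAs, 70.6% of those tested, beside 39.1% of all rows, and replicate 2 exceeded both controls in 7, 41.2% of those tested, beside 35.6% of all rows. Among C/D RNAs replicate 1 was above the control mean in 26 of 39 and replicate 2 in 13 of 39. Set directly against replicate 2 of the Yy1 knockdown, replicate 1 was higher in 11 of 17 H/ACA, 29 of 39 C/D and 5 of 8 Cajal body RNAs. A list of other short noncoding RNAs was compared in the same direct way. Of 11 tested, among them the spliceosomal U1 and U2 RNAs, the telomerase RNA Terc and the RNase MRP RNA Rmrp, 10 were higher in replicate 1 than in replicate 2 of the Yy1 knockdown, beside 55.1% of all tested rows, and 5 of 11 were higher in replicate 1 than in replicate 2 of the control. The vault RNA Vaultrc5, for example, stood at 602 and 346 FPKM after Yy1 knockdown and 442 and 512 FPKM in controls. The exception was Rpph1, the RNase P RNA, at 18620 and 27690 FPKM after Yy1 knockdown and 22035 and 21224 FPKM in controls, and with it the summed level of the list was the lower in replicate 1 of the Yy1 knockdown, at 51895 FPKM, against 56260 FPKM in replicate 2. In the C/D class this library did not stand apart, since its summed level, 1087 FPKM, was near that of control replicate 2, 1076 FPKM. Why the Yy1 knockdown replicates differed was not tested.

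**Figure D2:**
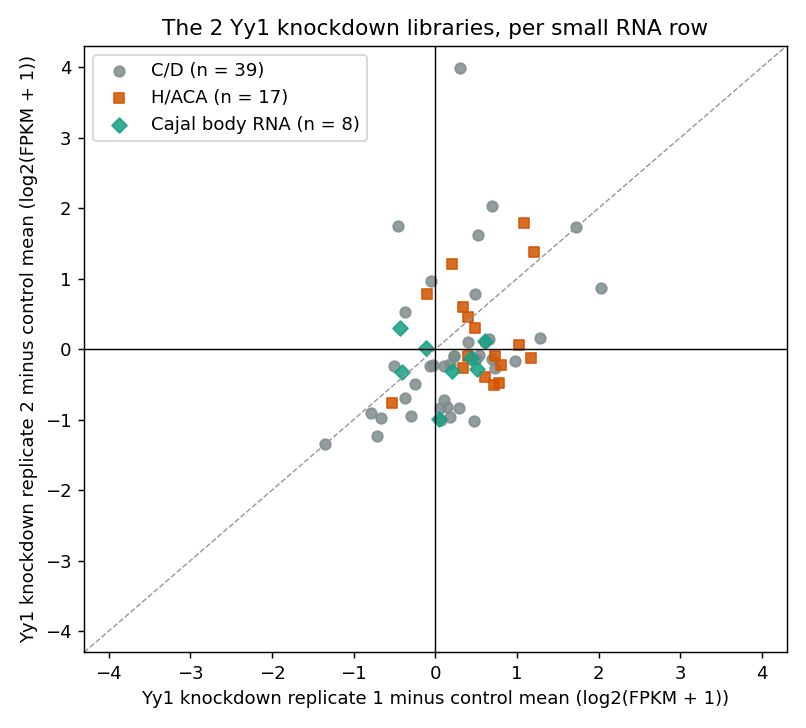
Difference from the mean of both controls on the log2(FPKM + 1) scale for each of the 64 tested RNAs, in replicate 1 (horizontal axis) and replicate 2 (vertical axis) of the Yy1 knockdown, coloured by class; the dashed line marks equal values. Of the 17 H/ACA RNAs, 15 lie right of zero but 8 lie above it.

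The levels were also summed per class. H/ACA rows summed to 560 and 338 FPKM after Yy1 knockdown, against 359 and 365 FPKM in controls. The Yy1 knockdown replicates differed 1.66 times while the controls differed 1.02 times, and the ratio of means, 1.24, was 0.934 without replicate 1. C/D rows summed to 1087 and 859 FPKM after Yy1 knockdown and to 800 and 1076 FPKM in controls, with a ratio of 1.04, and the groups overlapped. Cajal body rows summed to 256 and 248 FPKM after Yy1 knockdown, against 280 and 283 FPKM in controls. Here the Yy1 knockdown libraries were both lower than the controls, at a ratio of 0.894, and the mean ± SD was 252 ± 5.43 FPKM after Yy1 knockdown and 282 ± 2.00 FPKM in controls (n = 2 each). With 2 libraries a group, an exact two-sided permutation test cannot go below p = 0.333, which is the value of this separation. In recovered fragments the Cajal body rows took 0.00712% and 0.00689% of the library after Yy1 knockdown and 0.0079% and 0.00769% in controls.

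**Figure D3:**
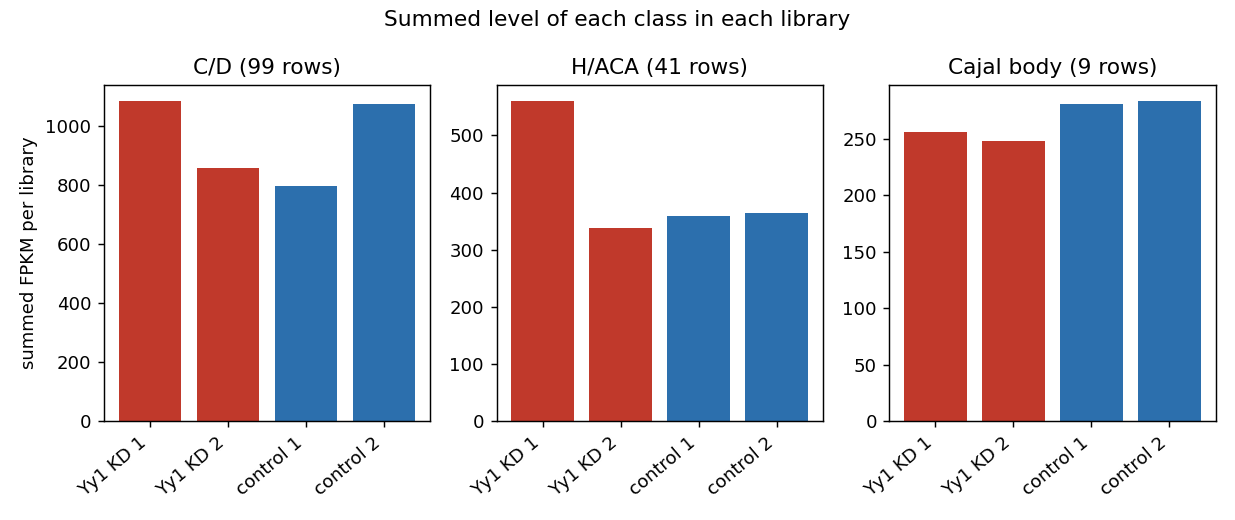
Summed FPKM of the C/D, H/ACA and Cajal body rows in each library, Yy1 knockdown in red and control in blue, 1 bar per library. Replicate 1 of the Yy1 knockdown stands alone in the H/ACA panel at 560 FPKM, while in the Cajal body panel both Yy1 knockdown bars, 256 and 248 FPKM, are below both control bars.

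The separation of the Cajal body sums rested on Scarna13, whose 3′ sequence is given above. Scarna13, a guide for spliceosomal small nuclear RNA that lies in the noncoding gene Snhg10 (chr12:105031075-105031349), stood at 79.0 and 84.3 FPKM after Yy1 knockdown (740 and 679 fragments), against 96.0 and 116.02 FPKM in controls (909 and 1002 fragments). The groups did not overlap (log2 fold change -0.37 ± 0.15, unadjusted p = 0.0533, adjusted p = 0.566), and the log2 fold change was -0.23 without control replicate 2. Without Scarna13 the class summed to 177 and 164 FPKM after Yy1 knockdown and 184 and 167 FPKM in controls, which overlap, at a ratio of 0.969. The 5 other Cajal body RNAs that passed the filter were low. In both related copies, Scarna3a and Scarna3b, the groups overlapped. Scarna3a was at 7.97 and 5.36 FPKM after Yy1 knockdown and 4.15 and 5.69 FPKM in controls. Scarna3b was at 0.633 and 1.72 FPKM after Yy1 knockdown and 1.88 and 0.687 FPKM in controls. These values are uncertain, since the counting of fragments that map to both copies is unknown here.

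Next, 6 members per direction were taken by the smallest unadjusted p among those whose groups did not overlap. Snora20, a guide for 18S rRNA within the chaperonin gene Tcp1 (chr17:12922857-12922917), had the smallest p of all members. It stood at 3.21 and 3.73 FPKM after Yy1 knockdown, against 0.908 and 0.746 FPKM in controls (log2 fold change 1.29 ± 0.24, unadjusted p = 0.00233, adjusted p = 0.455). Behind these values were 14 and 14 fragments after Yy1 knockdown and 4 and 3 fragments in controls, and limma-voom on recovered fragments gave an unadjusted p of 0.125. Snora2b, a 28S guide in Kansl2 (chr15:98526348-98526459), stood at 8.14 and 13.9 FPKM after Yy1 knockdown, against 4.24 and 2.56 FPKM in controls (log2 fold change 1.44 ± 0.32, unadjusted p = 0.00531, adjusted p = 0.462). It was covered by 38 and 56 fragments after Yy1 knockdown and 20 and 11 fragments in controls. In both of these H/ACA RNAs each knockdown replicate exceeded each control, while in Snora21 and Snora23 replicate 2 was the lowest library.

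Snord53, a 28S guide in Wdr43, stood at 5.64 and 15.8 FPKM after Yy1 knockdown, against 3.35 and 2.86 FPKM in controls (log2 fold change 1.36 ± 0.44, adjusted p = 0.532). Its log2 fold change was 0.70 without replicate 2 of the Yy1 knockdown and 2.03 without replicate 1. Snord71, a guide for 5.8S rRNA, stood at 7.94 and 8.03 FPKM after Yy1 knockdown, and at 0 and 6.37 FPKM in controls. It had 23 and 20 fragments after Yy1 knockdown and 0 and 17 in controls, so the difference in means came mainly from the control library at 0. Without that library its log2 fold change was 0.29, against 1.73 with it. Snora19, an 18S guide in the translation initiation factor gene Eif3a whose end is shown above, stood at 2.45 and 2.59 FPKM after Yy1 knockdown and 1.54 and 1.69 FPKM in controls, on 11 and 10 against 7 and 7 fragments.

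Of the lower members, Snord8, a guide for U6 small nuclear RNA (chr14:52209786-52209884), stood at 4.80 and 4.34 FPKM after Yy1 knockdown, against 7.39 and 11.0 FPKM in controls (log2 fold change -0.85 ± 0.24, unadjusted p = 0.0129, adjusted p = 0.502). Snord58b, within the ribosomal protein gene Rpl17, stood at 9.34 and 6.205 FPKM after Yy1 knockdown and 12.8 and 19.8 FPKM in controls (log2 fold change -0.97 ± 0.28, adjusted p = 0.518). Snora57 was the only tested H/ACA RNA with a lower mean, at 6.15 and 5.07 FPKM after Yy1 knockdown and 8.24 and 10.5 FPKM in controls (log2 fold change -0.65 ± 0.21, adjusted p = 0.531). Snord65 had 2 and 1 fragments after Yy1 knockdown and 5 and 4 in controls, and Snord88c had 0 and 0 fragments after Yy1 knockdown and 1 and 11 in controls. At such counts their differences rest on a few fragments.

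**Figure D4:**
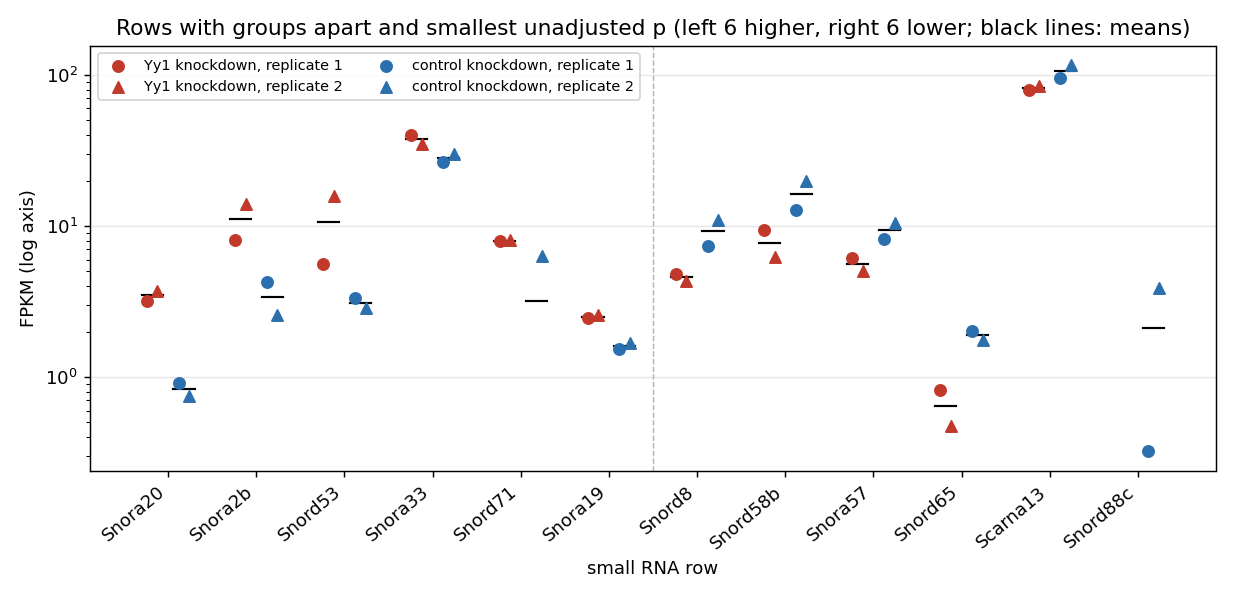
FPKM on a log axis of the 12 RNAs with the smallest unadjusted p among those whose groups do not overlap, 6 with a higher mean after Yy1 knockdown on the left and 6 with a lower mean on the right, Yy1 knockdown in red and control in blue, circles for replicate 1, triangles for replicate 2 and black lines for means. Values of 0 (control replicate 1 of Snord71, both Yy1 knockdown libraries of Snord88c) cannot be drawn on the log axis, and none of the 12 passed adjustment.

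Some members were followed for their part in rRNA processing. Snord13, which guides acetylation of 18S rRNA and has its own promoter, stood at 15.5 and 6.56 FPKM after Yy1 knockdown and 15.9 and 9.80 FPKM in controls. The replicates of each group differed more than the groups did. Snora73a, a processing RNA in Snhg3, had 0 and 4 fragments after Yy1 knockdown and 9 and 0 in controls. The Snord116 copies, from the imprinted Snhg14 cluster, were near 0. Of 17 rows 13 were above 0 somewhere, and their fragments summed to 17 and 6 after Yy1 knockdown and 3 and 1 in controls. These copies are nearly identical, so neither the split of their fragments nor the sum is certain.

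Members and hosts were compared by their log2 fold changes. Over 50 tested members with a tested host, from 41 hosts, the signs of the log2 fold changes matched in 30. Pearson's r was 0.37 and Spearman's rho 0.33, across RNAs that share hosts and libraries. The log2 fold changes had an SD of 0.63 for the members and 0.29 for the hosts. The noncoding gene 2410006H16Rik, which stood at 23.6 and 30.4 FPKM after Yy1 knockdown and 35.3 and 34.3 FPKM in controls (log2 fold change -0.36), held 3 members that all had lower means, at -0.47 for Snord49a, -0.53 for Snord49b and -0.82 for Snord65. The groups overlapped in Snord49a and Snord49b, and Snord65 had 2 and 1 fragments after Yy1 knockdown and 5 and 4 in controls. Snord17 and its host Snx5, a sorting nexin gene, also went the same way, at -0.38 and -0.30. Wdr43, a gene of the small-subunit processome, stood at 463 and 484 FPKM after Yy1 knockdown and 386 and 353 FPKM in controls (log2 fold change 0.36, unadjusted p = 0.0334), and its members Snord53 and Snord92 had log2 fold changes of 1.36 and 0.28. Rps3 was at 0.36 (unadjusted p = 0.0292) and its Snord15a at 0.18.

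Other pairs went apart. Snhg9 stood at 2.4 and 3.4 FPKM after Yy1 knockdown and 6.0 and 7.3 FPKM in controls (log2 fold change -0.99, unadjusted p = 0.00593, adjusted p = 0.463), while Snora78, which lies in it, was at 0.15. Behind the Snhg9 values were 15 and 18 fragments after Yy1 knockdown and 38 and 42 in controls. Against the control mean, Snora78 was at 0.78 in replicate 1 and -0.48 in replicate 2 of the Yy1 knockdown, so it had no shared direction. Rps12 was at -0.14, and its members Snora33 and Snord100 were at 0.39 ± 0.16 and 1.07 ± 0.51 (SE). In Snord100 the groups overlapped, at 13.1 and 29.1 FPKM after Yy1 knockdown and 5.49 and 13.8 FPKM in controls. Kansl2 was at 0.05 beside 1.44 for Snora2b, and Tcp1 at -0.12 beside 1.29 for Snora20. Zbed3, which holds Snora47, stood at 69.1 and 24.2 FPKM after Yy1 knockdown and 25.8 and 28.7 FPKM in controls, so replicate 1 of the Yy1 knockdown was the highest library for both. By kind of host, 11 of 16 tested members in ribosomal protein genes were higher, with a median of 0.22, as were 20 of 35 in hosts of no named kind, with a median of 0.12. Of 5 in translation factor genes 3 were higher, and of 4 in Snhg genes 3 were higher.

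**Figure D5:**
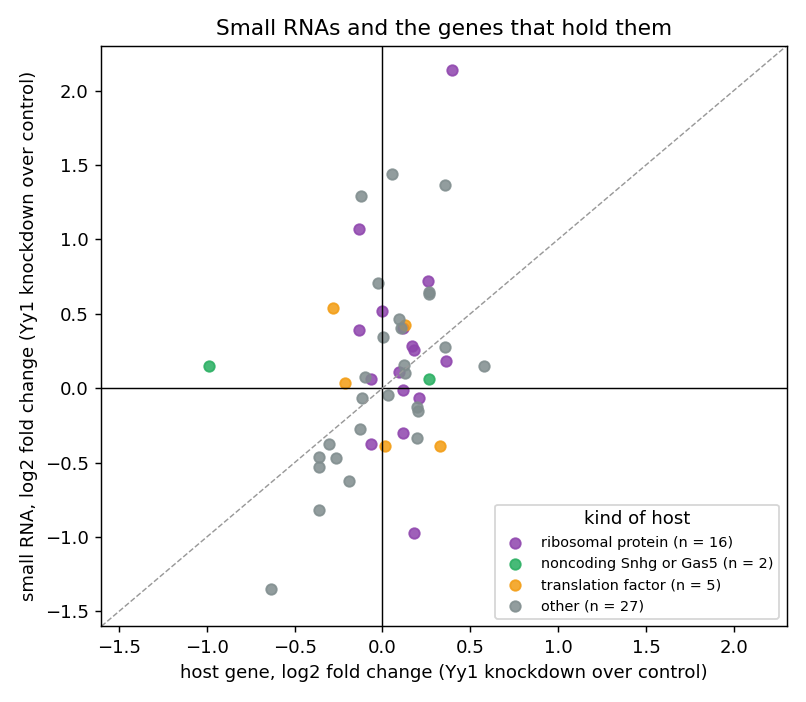
Log2 fold change of each of 50 tested RNAs (vertical axis) against that of the gene that contains it (horizontal axis), on the log2(FPKM + 1) scale, Yy1 knockdown over control, coloured by the kind of host; the dashed line marks equal values. The RNAs spread from -1.35 to 2.14 while most hosts lie close to 0, and the signs match in 30 of 50. The top value, Snord42b, rests on replicate 2 of the Yy1 knockdown, with 46 fragments.

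Genes of the proteins that bind, assemble and trim these RNAs were counted by list. In none of the lists did limma call a gene at an adjusted p under 0.05. Of the 6 H/ACA core and assembly proteins 5 had a higher mean after Yy1 knockdown (median log2 fold change 0.07), and of 4 C/D core proteins 2 did (0.07). Of 7 assembly factors 6 were higher (0.17), of 6 Cajal body and chaperone genes 2 (-0.02) and of 8 trimming and decay genes 4 (0.01). Pih1d1, a subunit of the R2TP assembly complex, stood at 6.26 and 7.26 FPKM after Yy1 knockdown and 3.68 and 4.15 FPKM in controls (log2 fold change 0.66, unadjusted p = 0.0167, adjusted p = 0.518). Exosc10, the nuclear exosome nuclease that trims small RNA ends, stood at 57.1 and 54.8 FPKM after Yy1 knockdown and 39.3 and 38.6 FPKM in controls (log2 fold change 0.51). In both genes the groups did not overlap. Groups were also apart in Nop10 (log2 fold change -0.38), Tgs1 (-0.29) and Xrn2 (-0.17), which were lower after Yy1 knockdown. The others with groups apart were higher, namely Nop58 (0.195), Fbl (0.21), Rpap3 (0.17) and Ruvbl1 (0.21). Of 13 noncoding host genes tested, 6 were higher and 7 lower (-0.05), and of 11 other small noncoding RNAs 6 were higher and 5 lower (0.03).

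Because YY1 is the factor knocked down, promoters of the hosts were searched for letters of its core motif, GCCATNTT, or AANATGGC on the other strand. RefSeq windows, 250 bases before to 50 after an annotated start, existed for 73 of 89 hosts. The letters were in the windows of 8 hosts (11.0%), beside 6.96% of all 27025 genes with a window. That set was not limited to genes expressed here or matched to the hosts in kind, and the difference in share was not tested. Hosts of tested members with such a window were Eef1b2, a translation elongation factor gene, Kansl2, a chromatin complex gene, the ribosomal protein gene Rpl13a and Tbrg4. Their windows are shown 5′ to 3′ with each match in capitals.
Eef1b2 (chr1:63176581-63176880, plus strand): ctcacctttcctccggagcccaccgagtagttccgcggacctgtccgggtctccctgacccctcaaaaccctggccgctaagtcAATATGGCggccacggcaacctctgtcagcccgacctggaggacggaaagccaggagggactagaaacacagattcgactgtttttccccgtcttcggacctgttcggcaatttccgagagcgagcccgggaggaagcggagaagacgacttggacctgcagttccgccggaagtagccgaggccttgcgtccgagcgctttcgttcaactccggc
Kansl2 (chr15:98534220-98534519, minus strand): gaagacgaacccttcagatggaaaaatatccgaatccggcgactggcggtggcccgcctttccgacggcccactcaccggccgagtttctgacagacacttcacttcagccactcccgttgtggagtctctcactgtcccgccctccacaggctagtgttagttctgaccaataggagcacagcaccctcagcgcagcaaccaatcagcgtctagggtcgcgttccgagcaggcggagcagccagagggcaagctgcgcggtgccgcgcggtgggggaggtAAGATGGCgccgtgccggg
Rpl13a (chr7:45128696-45128995, minus strand): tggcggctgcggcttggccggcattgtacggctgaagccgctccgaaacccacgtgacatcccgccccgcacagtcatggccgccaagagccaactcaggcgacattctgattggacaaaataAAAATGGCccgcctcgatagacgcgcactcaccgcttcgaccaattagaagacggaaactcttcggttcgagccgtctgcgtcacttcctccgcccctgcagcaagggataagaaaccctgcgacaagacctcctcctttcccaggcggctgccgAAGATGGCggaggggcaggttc
Tbrg4 (chr11:6626018-6626317, minus strand): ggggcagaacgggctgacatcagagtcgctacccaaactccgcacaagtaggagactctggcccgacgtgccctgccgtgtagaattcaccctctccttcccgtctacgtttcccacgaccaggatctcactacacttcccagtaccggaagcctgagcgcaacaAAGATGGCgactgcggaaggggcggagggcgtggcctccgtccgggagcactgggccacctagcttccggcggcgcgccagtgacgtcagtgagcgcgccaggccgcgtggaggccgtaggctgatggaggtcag
A match is a description of letters and shows no binding. The 6 tested members in these hosts were 4 with a higher mean and 2 with a lower one (median log2 fold change 0.47), and 28 of 43 in hosts without the letters were higher (median 0.16). Beside Snora2b of Kansl2, they were Snora41 of Eef1b2 at 0.54, Snora5c of Tbrg4 at 0.70, and Snord32a, Snord34 and Snord35a of Rpl13a at 0.40, -0.30 and -0.02. The hosts themselves were at -0.28 for Eef1b2, 0.05 for Kansl2, 0.12 for Rpl13a and -0.02 for Tbrg4. Against the control mean, Snora41 was at 1.03 and 0.05 in Yy1 knockdown replicates 1 and 2, and Snora5c at 0.20 and 1.21. Snora2b was above both controls in each replicate. Whether the letters bear on these changes was not tested. Rpl13a stood at 26.9 and 28.0 FPKM after Yy1 knockdown and 22.6 and 28.2 FPKM in controls, and its other member, Snord33, was listed at 0.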

How the data were processed

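RNA-seq of 4 libraries of 8-cell embryos was analysed, 2 per group, grouped by sample titles. The authors deposited FPKM in 1 table of 49585 rows. Tools in the submitters' processing notes include HISAT2 2.2.1 and featureCounts, with mm10 as the build, and no tool is tied to an assay. The annotation, the strand setting and the rule for multimapping fragments were not given in the sources used here, so overlapping, antisense and copied genes are uncertain.

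Library totals were first estimated from the steps between FPKM values of short RNAs. They were then refined on higher rows, to the totals that left fragments nearest to whole numbers, and fragments were recovered from these totals. Of 12120 rows above the filter, 12118 gave whole fragments within 0.02 in all 4 libraries. Members took the feature length nearest to RefSeq's that gave whole fragments, so fragments may be off by a common factor. Of the 85 members above 0, 17 were recovered at the RefSeq length and 68 at another length. Positions and sequences of members are RefSeq's and may differ from the features that were counted. Rows with a mean of at least 1 FPKM were tested on log2(FPKM + 1) with limma 3.58.1 in R 4.3.3, with group as the only term and a mean-variance trend. p was adjusted after Benjamini-Hochberg over all rows. Fold changes on this scale understate the change of low rows. The fit was also run on simulated data with independent rows, whose spread followed the trend over all rows, and only higher rows were changed. Members varied more between replicates than all rows did, so that run does not show how the fit performs on them. No label says that replicates are separate collections of embryos, so p-values reflect only library-to-library spread, possibly technical. Shares carry exact Clopper-Pearson intervals (95%).

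Of 149 member rows, 141 were placed by symbol in RefSeq (GRCm38.p6). The host is the smallest gene whose span contains the member. The design called for a host on the same strand, but the RefSeq table gives no strand, so none was used. Named members are the highest by mean level (4 C/D, 4 H/ACA, 3 Cajal body), 6 per direction with the smallest p and groups apart, and those fixed for a known function, with their hosts. From each list up to 4 genes could be named. Genes named outside this rule were chosen after their values were seen. Members and lists were chosen with earlier results of these data known. Alternatives were a pseudocount of 0.1, 3 other filters, 2 scalings, the replicate block, omission of each library in turn, limma without trend or with robust moderation, limma-voom, and a threshold of 0.1.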

Additional observations from a re-analysis of the deposited data

How the results depend on the processing

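Under every alternative run, 0 members were called, and the lowest adjusted p of a member in any fit was 0.311. Rows called over the whole table were 0, but 4 with a filter of 5 FPKM, 1 with robust moderation, 13 with limma-voom on recovered fragments and 3 at a threshold of 0.1. It was 0 with each library left out. The number of members with a higher mean, 39 of 64, ran from 24 to 46 when a library was left out, with 24 without Yy1 knockdown replicate 1. The counts per class were recomputed after seeing the data. C/D RNAs higher were 20 of 39, 33 of 57 with no filter and 13 to 26 without a library. H/ACA RNAs higher were 16 of 17 and 8 to 15 without a library. Cajal body RNAs higher were 3 of 8 and 3 to 6 without a library. The ratio of summed H/ACA levels, 1.24, ran from 0.934 to 1.55 without a library. The Cajal body ratio, 0.894, was 0.844 without Scarna6 and, chosen after seeing the data, 0.969 without Scarna13. Deviations of same-numbered libraries from their group means correlated at 0.0994, so the numbers were not taken to pair the libraries. With 2 libraries a group, deviations within a group mirror each other, so both pairs give this same value. With the replicate block 0 rows and 0 members were called and 39 members were higher.

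Of 304 values of the 22 named members, 289 kept their direction and 15 turned, all with a library left out. Without Yy1 knockdown replicate 1 these were Snord15a at -0.143, Snord118 at -0.0817, Snord87 at -0.101, Snora21 at -0.23, Snora23 at -0.393, Snora47 at -0.104 and Scarna6 at 0.0151. Without replicate 2 they were Scarna2 at 0.207 and Snord13 at 0.29. Without control replicate 1 they were Snord15a at -0.0206, Snord87 at -0.265, Snora47 at -0.00675, Scarna6 at 0.0896, Scarna2 at 0.0396 and Snord13 at 0.0499. Over the libraries left out, the highest values were 0.503 for Snord15a, 0.529 for Snord118, 0.392 for Snord87, 0.798 for Snora21, 0.602 for Snora23 and 0.406 for Snora47, and the lowest were -0.183 for Scarna6, -0.309 for Scarna2 and -0.838 for Snord13. The cause was not tested. Members with under 10 fragments in a library are limited by counting error.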
